A study of Mus musculus with 14 samples.

Results

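Cell cycle genes were followed here through the chromatin around their start sites. The set holds 42 genes, and a window of open chromatin was taken as theirs when its centre lay within 10 kb of a start site of one of them and no other protein-coding gene had a nearer start site. The rule was met by 369 of the 240778 windows measured. They belonged to 41 of the 42 genes, since Rrm2, a subunit of ribonucleotide reductase, had no window. The rule uses gene names and positions, not measured values.

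Bulk ATAC-seq, in which a transposase cuts and tags open DNA, was performed on Treg cells from the spleen and lymph nodes of mice to ask what loss of the transcription factor Foxp3 does to chromatin. All 14 mice carried Foxp3AID, an allele of Foxp3 fused to an auxin-inducible degron, and all received the auxin analogue 5-ph-IAA. In R26TIR1(F74G) mice the ROSA26 locus also held the plant receptor TIR1(F74G), with which 5-ph-IAA sends the fusion protein for degradation, and R26WT mice lacked it. On day 3 of treatment 4 R26WT and 4 R26TIR1(F74G) mice were taken, and on day 7 3 of each. By the study's methods TIR1 stands behind a STOP cassette that is removed by Cre made from the Foxp3 locus itself, so the receptor is limited to cells that have expressed Foxp3. No mouse went without 5-ph-IAA, and the labels give no age. Each library is a separate mouse by the mouse names. The names begin with E in R26WT day 3 replicate 4 and in R26TIR1(F74G) day 3 replicates 3 and 4 and day 7 replicate 3. All others begin with AC, and the labels do not say what the letters mean. The sorted cells were labelled only as Treg. The study's text describes resting and activated cells sorted apart on day 7, from heterozygous Foxp3AID/WT mice that also hold Treg cells with the other allele, and the labels give neither the state of the cells nor the zygosity of the mice. Since the libraries are bulk, fewer cells with an open window and a less open window in each cell cannot be told apart.

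The cell cycle is driven by cyclins and the kinases they activate. D cyclins with Cdk4 and Cdk6 and then E cyclins with Cdk2 inactivate the retinoblastoma protein, which frees E2F factors to switch on the genes for DNA replication, while inhibitors such as p27 hold the kinases back. Mitotic genes are switched on later, largely through CCAAT boxes and a short element called CHR, the cell cycle genes homology region. Most Treg cells of lymphoid organs are not dividing at a given time, and a minority of activated cells cycles.

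The libraries held 5653289 to 20184487 counts in windows, R26TIR1(F74G) day 3 replicate 1 and R26WT day 7 replicate 3 holding the fewest, 5653289 and 6348754. Between 0.289% and 0.322% of a library's counts lay in the 369 windows. Of 10 Treg markers, 8 had a window within 1 kb of the start site, and the other two, Foxp3 and Tnfrsf18, did not. Foxp3 had 3 windows in the body of the gene, and the strongest measured 6.65 to 11.6 CPM (CPM, the count scaled to the size of its library, with sizes corrected by edgeR's trimmed mean of M values, TMM) over the 14 mice. Accessibility does not measure Foxp3 protein, so its degradation could not be checked here. The 8 Treg promoter windows summed to 80.2 to 97.6 CPM in R26WT and 70.0 to 91.9 CPM in R26TIR1(F74G) mice on day 3, and to 81.3 to 93.4 and 80.1 to 82.3 CPM on day 7. Among B cell markers, Ms4a1, Cd79a, Pax5, Blk and Cd22 had no such window, and the windows of Ebf1 and Cd79b summed to 3.23 to 7.65 CPM in any library. Of the 9 myeloid markers 4 had one, with a sum of 11.3 to 14.3 CPM, and neither NK cell marker had one. The 2 CD8 T cell markers summed to 11.3 to 15.5 CPM.

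To show what lies in these promoters, sequences before the start site were taken from RefSeq (build GRCm38.p6), whose promoter table held 36 of the 42 genes. Those printed are Mcm6, the member with the most E2F motifs, Top2a, the member with the most CHR and CCAAT motifs, Pcna and Tyms, the most and the least accessible of the promoter windows chosen within 1 kb, and Birc5 and Plk1. The last pair was picked for the small unadjusted p of its windows in the comparisons of genotype. None of those windows passed the main test given below. Each run holds the 250 bases before the start site, 5′ to 3′ on the strand of the gene, and capitals mark E2F, CHR and CCAAT motifs on either strand. Mcm6 lies at chr1:128359706-128359955 (minus strand), Top2a at chr11:99024190-99024439 (minus), Pcna at chr2:132253181-132253430 (minus), Tyms at chr5:30073626-30073875 (minus), Birc5 at chr11:117848987-117849236 (plus) and Plk1 at chr7:122159185-122159434 (plus).
Mcm6: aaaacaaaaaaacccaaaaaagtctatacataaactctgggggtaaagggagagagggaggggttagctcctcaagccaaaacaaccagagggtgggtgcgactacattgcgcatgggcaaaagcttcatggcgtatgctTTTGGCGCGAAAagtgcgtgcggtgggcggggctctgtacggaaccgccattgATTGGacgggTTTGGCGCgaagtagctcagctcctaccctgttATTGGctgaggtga
Top2a: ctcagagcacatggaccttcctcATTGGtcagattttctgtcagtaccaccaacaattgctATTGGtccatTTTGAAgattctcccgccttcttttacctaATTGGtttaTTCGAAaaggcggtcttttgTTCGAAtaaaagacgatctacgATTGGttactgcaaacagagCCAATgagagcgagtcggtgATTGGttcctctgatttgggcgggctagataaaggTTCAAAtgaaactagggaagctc
Pcna: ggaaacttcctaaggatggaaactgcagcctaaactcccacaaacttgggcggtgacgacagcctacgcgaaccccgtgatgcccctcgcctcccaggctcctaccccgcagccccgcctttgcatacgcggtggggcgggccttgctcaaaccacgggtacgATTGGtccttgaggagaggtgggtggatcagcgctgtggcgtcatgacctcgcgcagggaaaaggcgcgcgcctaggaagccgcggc
Tyms: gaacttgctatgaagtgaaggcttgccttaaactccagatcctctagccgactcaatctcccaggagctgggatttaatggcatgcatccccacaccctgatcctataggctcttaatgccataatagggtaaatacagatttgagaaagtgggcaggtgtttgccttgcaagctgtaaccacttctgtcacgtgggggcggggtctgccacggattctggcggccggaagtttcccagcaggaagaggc
Birc5: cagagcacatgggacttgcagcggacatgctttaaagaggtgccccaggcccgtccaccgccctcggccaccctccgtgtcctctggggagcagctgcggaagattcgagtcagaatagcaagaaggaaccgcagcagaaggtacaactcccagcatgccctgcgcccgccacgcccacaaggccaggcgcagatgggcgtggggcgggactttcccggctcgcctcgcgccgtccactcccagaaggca
Plk1: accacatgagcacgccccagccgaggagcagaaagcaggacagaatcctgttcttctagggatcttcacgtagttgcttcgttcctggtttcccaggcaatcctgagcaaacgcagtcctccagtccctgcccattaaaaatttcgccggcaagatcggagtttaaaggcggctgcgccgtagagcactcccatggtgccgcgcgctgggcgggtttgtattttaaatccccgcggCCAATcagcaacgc

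The E2F motif was searched as TTTCCCGC, TTTGGCGC, TTTCGCGC and TTTGCCGC, the CHR as TTTGAA and TTCGAA and the CCAAT box as CCAAT, each on both strands of the 300 bases from 250 before the start site to 50 after it. An E2F motif was found in 9 of the 36 promoters (25%) and in 2.85% of 21262 promoters of protein-coding genes. Of the 9, 6 were among the 7 replication licensing genes in the table, and Mcm6 held 3 matches, an overlapping pair that begins 110 and 106 bases before the start site and one that begins 47 bases before it. The CHR was found in 15 of 36 promoters (41.7%) against 17.6% of all, and 7 of the 8 genes of mitotic cyclins, kinases and checkpoint and 4 of the 5 of chromosome and spindle proteins held it. A CCAAT box was found in 25 of 36 (69.4%) against 38.2% of all, and in all 8 of the mitotic cyclins, kinases and checkpoint genes in the table. The promoter of Top2a, the topoisomerase that untangles replicated DNA, held 4 CHR and 6 CCAAT matches. That of Birc5 held none of the 3 motifs, and that of Plk1 held a CCAAT box 14 bases before the start site and a CHR after it. Median accessibility was 30.5 CPM over the 9 genes with an E2F motif and 24.8 CPM over the 25 without one that had a promoter window. It was 26.4 against 25.6 CPM for the CHR. These medians describe the letters searched only. For Cdc6 and E2f1 the sequence searched belonged to another start site than the window measured. In Cdk6 and Tyms it did not overlap the window.

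Most of the windows sat at promoters, 212 of 369 (57.5%) with a centre within 1 kb of a start site. The genes with a window had 2 to 28 of them with a median of 6. Ccnd3, which encodes cyclin D3, had 28, Cdkn2c 22 and Ccnd2 21, and Birc5, Cdc20, Mcm4 and Pcna had 2 each. Windows overlapped in part, 181 of the 369 sharing bases with another, so neighbouring windows share reads and are not separate measurements. By position, 192 lay in the record of their own gene, 58 only in that of another gene and 119 in none.

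For each gene the promoter window is the one within 1 kb of a start site with the highest mean level over the 14 mice, and it is given in TMM CPM. All windows are of one length, so levels need no correction for length. Other differences between loci were not corrected for, and the level of a gene depends on the window chosen. There was such a window for 40 genes, all but Rrm2 and Tk1, which starts beside the neighbouring gene Afmid and whose nearest window was centred 2248.5 bp away. Of the 40, 35 had a centre within 200 bp of the start site. Their median level was 25.999 CPM against 17.2 CPM over the promoter windows of 12147 genes, and 30 of the 40 were above the latter. The lowest and the highest of the 40, Tyms and Pcna, differed 15.9-fold.

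**Figure D1:**
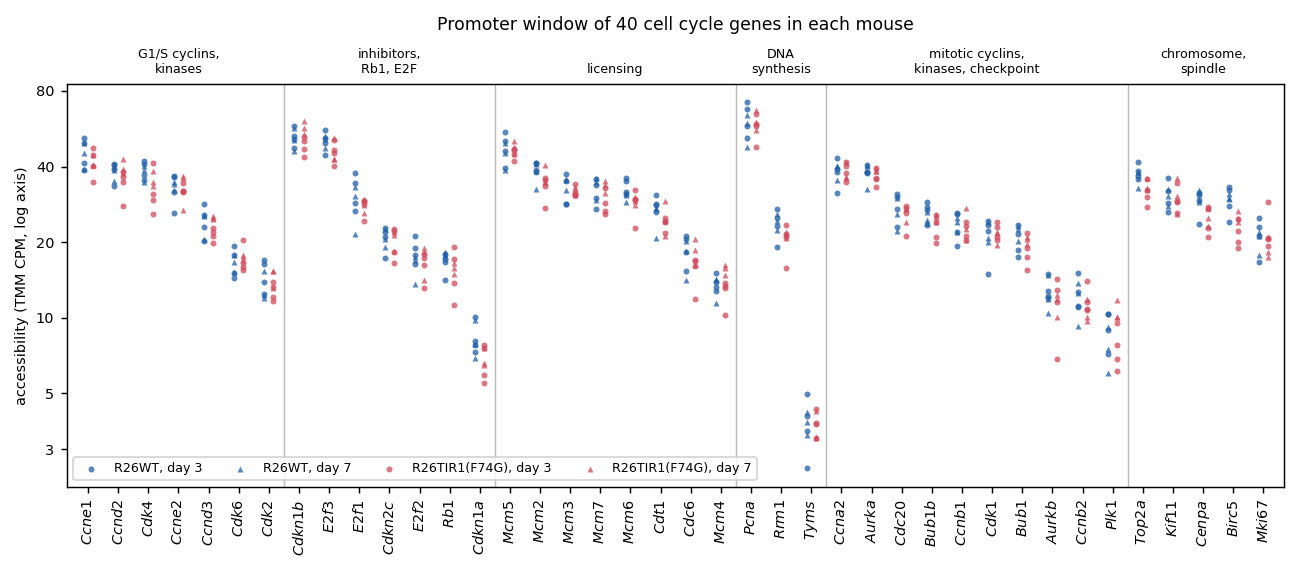
Accessibility of the promoter window of 40 cell cycle genes in each of 14 mice (TMM CPM, log axis), grouped by role and ordered by mean within a role. Circles are day 3 and triangles day 7, blue is R26WT and red R26TIR1(F74G). Genes differ by up to 15.9-fold while the points of one gene lie close together and the colours overlap.

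Among the cyclins and kinases of G1 and S entry, the promoter of Ccne1 (cyclin E1) was the most accessible, at 45.1 ± 5.53 CPM (SD, n = 7) in R26WT mice, and that of Cdk2, the kinase that cyclin E activates, the least of the windows chosen within 1 kb, at 14.2 ± 2.04 CPM. Ccne1 measured 38.6, 41.1, 51.8 and 49.9 CPM in R26WT mice on day 3 and 47.3, 40.1, 34.8 and 44.5 in R26TIR1(F74G) mice, and on day 7 45.5, 49.6 and 39.0 against 44.5, 40.5 and 40.4. The genotypes overlapped on both days. Cdk4, the partner of D cyclins, measured 35.2, 37.0, 40.9 and 41.9 CPM in R26WT mice on day 3 against 29.5, 41.3, 25.9 and 31.0, so that 3 of 4 R26TIR1(F74G) mice were below every control and 1 was within their range. Its log2 fold change was −0.27 ± 0.12 (SE) on day 3 and −0.10 on day 7, with adjusted p = 0.617 and 0.949 in edgeR's quasi-likelihood test. The windows chosen for Ccne2 and Ccna2 lie 806.5 and 981.5 bp inside their gene records. The promoter table held neither gene, so the 5′ ends of these records were their only start sites. A transcript start further inside, at or near the chosen windows, was not examined. Within 500 bp of those ends, the most accessible windows in R26WT mice measured 11.9 CPM for Ccne2 and 3.74 CPM for Ccna2. The chosen windows measured 33.1 and 38.2 CPM. Cdk6 likewise measured 11.2 CPM in place of 16.6 CPM. With this limit Cdk6 and Ccne2, not Cdk2, were the lowest of their group, which for Ccne2 depends on the start site used.

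Among the inhibitors, Rb1 and E2F genes, Cdkn1b, encoding the kinase inhibitor p27, had the most accessible promoter at 52.0 ± 4.43 CPM in R26WT mice and Cdkn1a, encoding p21, the least at 8.25 ± 1.21. The promoters stood at the 95.0 and 27.2 percentiles of all promoter windows. Cdkn1a measured 8.05, 7.81, 7.31 and 10.0 CPM in R26WT mice on day 3 and 7.55, 5.90, 5.52 and 7.80 in R26TIR1(F74G) mice, and on day 7 9.82, 7.85 and 6.90 against 7.59, 6.62 and 6.48. Values overlapped on both days, and the log2 fold change over both days was −0.31 ± 0.12 with adjusted p = 0.599. E2f3, E2f1 and E2f2 had mean levels of 48.1, 29.1 and 17.0 CPM, and Rb1, whose protein holds E2F factors in check, 16.3 CPM.

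The replication licensing genes, which load the replicative helicase onto origins, were led by Mcm5 at 46.4 ± 5.87 CPM in R26WT mice, and the lowest was Mcm4 at 13.5 ± 1.19, although the 6 Mcm proteins act as one ring. Mcm2 measured 37.9, 38.9, 41.4 and 41.3 CPM in R26WT mice on day 3 and 35.97, 35.3, 27.4 and 33.4 in R26TIR1(F74G) mice, without overlap. Cdt1, which brings the ring to the origin, also did not overlap on day 3, with 26.3 to 30.9 CPM against 21.8 to 24.8. On day 7 both genes overlapped, Mcm2 with 40.8, 38.4 and 32.5 against 34.6, 34.8 and 40.7 CPM. The log2 fold changes on day 3 were −0.28 ± 0.11 for Mcm2 and −0.26 ± 0.12 for Cdt1, neither past the test (adjusted p = 0.583 and 0.624).

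Of the DNA synthesis genes, Pcna, the sliding clamp of DNA polymerase, had the most accessible promoter of all members, 60.2 ± 8.57 CPM in R26WT and 59.1 ± 6.35 CPM in R26TIR1(F74G) mice (n = 7 each), at the 97.4 percentile of all promoter windows. It measured 51.8, 58.3, 67.7 and 72.1 CPM in R26WT mice on day 3 and 64.9, 59.2, 47.8 and 57.9 in R26TIR1(F74G) mice. On day 7 it measured 64.3, 59.7 and 47.8 CPM against 67.4, 56.0 and 60.5. The genotypes overlapped on both days, and the spread between mice of one group was larger than any difference between groups. Tyms, thymidylate synthase, had the lowest of the 40 windows chosen within 1 kb, at 3.79 ± 0.758 CPM in R26WT mice, the 16.0 percentile. Ccna2 was below it at 3.74 CPM only when centres had to lie within 500 bp of the 5′ end of its gene record. Rrm1, the partner subunit of Rrm2, had 23.9 ± 2.65 CPM.

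Among the mitotic cyclins, kinases and checkpoint genes, Aurka, the Aurora A kinase, measured 38.2 ± 2.84 CPM in R26WT mice, beside Ccna2 with its window 981.5 bp inside the gene. Plk1, the Polo-like kinase, was the lowest of the windows chosen within 1 kb, at 8.50 ± 1.65 CPM. The Ccna2 window within 500 bp of the 5′ end of its gene record was lower at 3.74 CPM. Aurkb, Ccnb2 and Plk1 stood between the 30.1 and 38.2 percentiles of all promoter windows, and the other 7 genes of the group between the 56.7 and 85.6 percentiles. Among the chromosome and spindle proteins the range was narrow, from 21.0 CPM for Mki67, the gene of the Ki67 antigen, to 34.9 CPM for Top2a as means over 14 mice.

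The first question put to these windows was whether they differ between mice with and without the degrading receptor. No cell cycle window passed the test in any comparison, at an adjusted p of 0.05 in the quasi-likelihood test of edgeR, with p-values adjusted by Benjamini-Hochberg over all windows. In all windows, 0.00463% passed for genotype at day 7 (11 of 237811), 0.0% at day 3 and 0.0112% over the 2 days (27 of 240778). Among members, the unadjusted p was under 0.05 in 31 of 369 on day 7, 8.40% against 5.95% of all windows, in 35 of 367 on day 3, 9.54% against 7.55%, and in 37 of 369 over both days, 10.0% against 6.73%. DESeq2 also called no member window on either day, and called 3 over both days. There it called 0.0644% of all windows (155 of 240778) and gave no adjusted p for 210066 of them. A window without an adjusted p could not be called, so shares among windows with one are higher. The unadjusted counts moved with single mice. On day 7 the count was 18 without R26TIR1(F74G) replicate 1, and on day 3 it was 21 without R26TIR1(F74G) replicate 4, 22 without R26WT replicate 3 and 53 without R26WT replicate 1. With the share of counts at promoters, described below, as a term in the fit it was 14 on day 3. With the same term the count was 35 on day 7 and 39 over both days. With the opening letters of the mouse name as a term instead it was 29 on day 3 and 30 over both days.

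Windows with a small unadjusted p lay mostly on one side on each day. On day 3, 33 of the 35 windows with an unadjusted p under 0.05 were lower in R26TIR1(F74G) mice. On day 7, 21 of 31 were higher, and 8 of the 31 belonged to Plk1 alone, whose windows partly share reads. Of the 40 promoter windows, 36 had a negative log2 fold change on day 3, with a median of −0.15, and 27 had one on day 7, with a median of −0.03. The median SE of a single promoter window was 0.122 on day 3 and 0.124 on day 7. Promoters as a whole moved the same way. Of the promoter windows of 12132 genes, 76.1% were below 0 on day 3, with a median of −0.11. On day 7 it was 54.9% and −0.02. Over all 212 member windows within 1 kb, rather than 1 per gene, the median was −0.11 on day 3 and 0.06 on day 7. Of the 212, 127 were above 0 on day 7, when all windows so placed had a median of 0.03. Nothing particular to cell cycle genes is read from these shares.

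**Figure D2:**
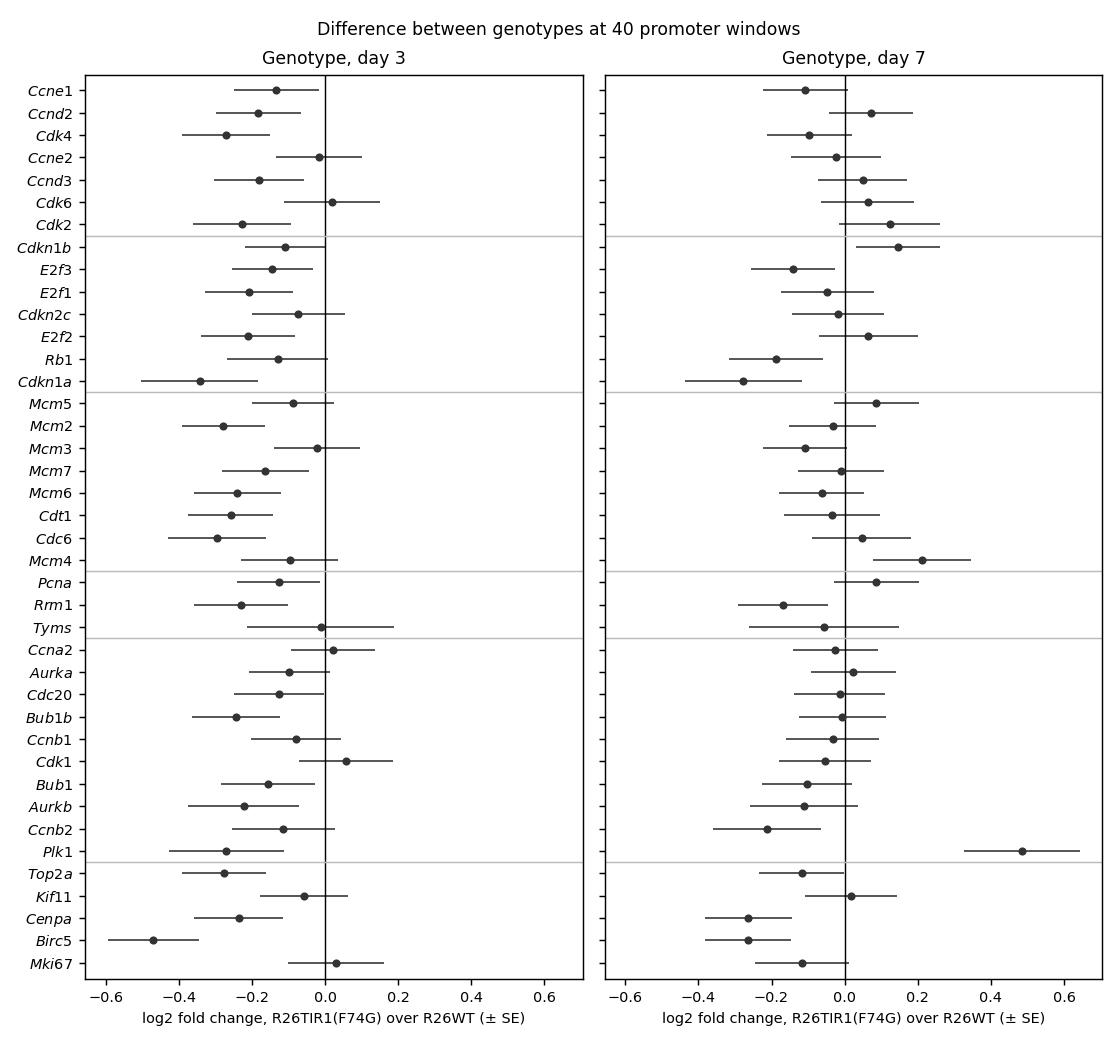
Log2 fold change of R26TIR1(F74G) over R26WT mice (± SE) for each of the 40 promoter windows on day 3 (left) and day 7 (right), by edgeR. On day 3, 36 of 40 points lie below 0 and on day 7 27 do, and the lowest point on day 3 is Birc5 and the highest on day 7 Plk1.

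The same spread was seen from mouse to mouse. As the deviation of each mouse from the mean of 14 mice on the log2 scale, the median over the 40 member promoters ran from −0.25 in R26TIR1(F74G) day 3 replicate 3 to 0.20 in R26WT day 3 replicate 4, and over all 12147 promoters from −0.19 to 0.18 in the same pair of mice. Within R26WT mice on day 3 the member medians already spread from −0.16 to 0.20, and those of R26TIR1(F74G) mice on day 3 from −0.25 to 0.02. The share of a library's counts in windows within 1 kb of a start site moved beside it, at 48.3% and 52.8% in the mice with the lowest and the highest member median, and was 50.7% to 52.8% in R26WT and 48.3% to 52.2% in R26TIR1(F74G) mice on day 3. On day 7 it was 48.3% to 52.0% and 51.0% to 52.3%. With this share as a term in the fit, an alternative added after the data were seen, the median log2 fold change of the promoter windows was −0.04 on day 3 and −0.08 on day 7. Its part in the differences was not otherwise tested. The member median less that of all promoters was 0.02 to 0.05 in R26WT mice, except −0.09 in day 3 replicate 1. In R26TIR1(F74G) mice it was −0.07 to −0.01, except 0.03 in day 3 replicate 4. This offset was not tested.

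**Figure D3:**
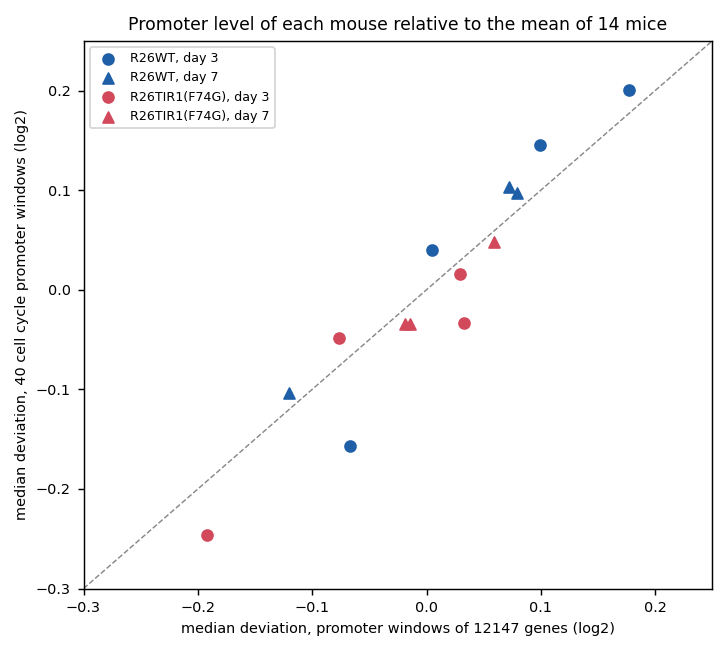
Median deviation of each mouse from the mean of the 14 mice (log2) over the 40 cell cycle promoter windows (vertical axis) and over the promoter windows of 12147 genes (horizontal axis). Points lie along the dashed line of equal values from −0.19 to 0.18 on the horizontal axis, and R26WT and R26TIR1(F74G) mice of day 3 overlap. R26WT points lie mostly just above the line and R26TIR1(F74G) points mostly just below it.

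Birc5, encoding survivin, a subunit of the chromosomal passenger complex of mitosis, had the smallest p of any member on day 3 and over both days. Its promoter window, chr11:117849050-117849251 in mm10, is centred 86.5 bp before the start site, over the sequence printed above. It measured 32.2, 24.1, 27.9 and 33.0 CPM in R26WT mice on day 3 and 24.6, 18.9, 19.97 and 22.1 in R26TIR1(F74G) mice. On day 7 it measured 29.8, 31.2 and 30.0 CPM against 25.03, 24.1 and 26.5. On day 3 1 R26TIR1(F74G) mouse reached above the lowest control, and on day 7 all 3 lay below the controls. The log2 fold change was −0.47 ± 0.12 (SE) at day 3, −0.27 ± 0.12 at day 7 and −0.38 ± 0.089 for the days together, with adjusted p = 0.407, 0.815 and 0.196. It was called over both days by DESeq2 (adjusted p = 0.00619), where 0.0644% of all windows were called and most had no adjusted p. It was also called in 3 other settings. These were a mean count of at least 50 (0.124% of all windows called) and the share of counts at promoters as a term (0.0457%). They also included leaving out the 2 libraries with the fewest counts (0.047%).

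The second Birc5 window, 615.5 bp before the start site, gave 12.8, 11.9, 11.7 and 13.2 CPM in R26WT mice on day 3 and 10.6, 8.80, 9.76 and 8.85 in R26TIR1(F74G) mice, without overlap. On day 7 the values were 13.6, 11.6 and 9.75 against 10.1, 8.64 and 9.81, with overlap. Its log2 fold change over both days was −0.36 ± 0.10, with adjusted p = 0.378 by edgeR and 0.0348 by DESeq2. Both windows of the gene thus lay lower in the same direction on both days and neither passed edgeR's test.

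On the same chromosome, the windows assigned to Tk1, thymidine kinase of the DNA salvage pathway, that follow lie in the record of its neighbour Afmid, on the side of Birc5. The window 6132.5 bp upstream of Tk1 measured 28.3, 21.9, 26.3 and 27.0 CPM in R26WT mice on day 3 and 21.4, 21.1, 16.5 and 17.1 in R26TIR1(F74G) mice. All 4 of the latter lay below the controls. On day 7 the values were 27.9, 25.9 and 21.6 against 26.4, 22.2 and 24.5 CPM and overlapped. The log2 fold change was −0.45 ± 0.12 on day 3 (adjusted p = 0.426) and −0.06 on day 7. The window 6464.5 bp upstream, one of the 5 most accessible member windows outside promoters at 23.8 CPM, gave −0.37 ± 0.12 on day 3 (adjusted p = 0.500). Its interaction of genotype and day was 0.38 ± 0.18 with adjusted p = 0.782.

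Plk1, whose kinase drives entry into mitosis and spindle assembly, had the highest log2 fold change of the promoter windows on day 7, and 3 of its windows held the 3 smallest p of members in that direction. The promoter window, centred 70.5 bp before the start site at chr7:122159264-122159465, measured 6.01, 9.19 and 7.50 CPM in R26WT mice on day 7 and 11.8, 10.1 and 10.1 in R26TIR1(F74G) mice. The groups did not overlap. On day 3 it measured 7.19, 10.4, 10.3 and 8.91 CPM in R26WT mice and 6.83, 7.78, 9.54 and 6.11 in R26TIR1(F74G) mice, which overlapped and ran the other way. The log2 fold change was 0.48 ± 0.16 on day 7 (adjusted p = 0.684; 0.32 without R26WT replicate 1) and −0.27 ± 0.16 on day 3, and the interaction was 0.76 ± 0.23 (adjusted p = 0.630).

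Other windows of the gene were examined because of these values. Of the 13 Plk1 windows, 7 did not overlap between genotypes on day 7 and were higher in R26TIR1(F74G) mice (11.8% of all windows did not overlap), and all 13 had a negative log2 fold change on day 3. Of the 13, 9 overlap another window and share reads with it. The window 355.5 bp before the start site measured 5.69, 6.40 and 3.75 CPM in R26WT mice on day 7 against 9.41, 6.91 and 8.45, and 4.76, 7.01, 8.13 and 7.20 on day 3 against 3.42, 5.37, 4.84 and 5.95. Its interaction of genotype and day was 1.01 ± 0.26 and that of the window 441.5 bp inside the gene 1.13 ± 0.29, both with adjusted p = 0.532. No member window passed the interaction test, nor did any of the 240778 windows (0.0%), and an unadjusted p under 0.05 was found in 37 of 369 members against 6.32% of all windows. DESeq2 called no member in the interaction.

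**Figure D4:**
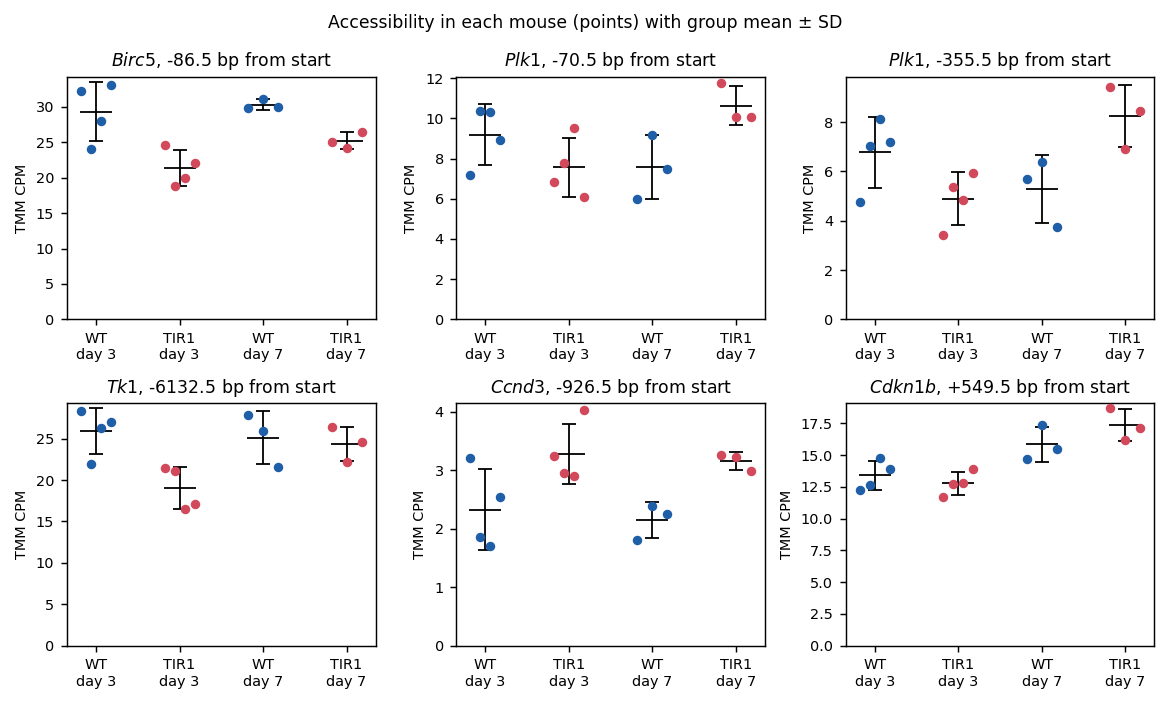
Accessibility in TMM CPM of 6 windows in each mouse (points) with the mean and SD of each group (black), by genotype and day. TIR1 stands for R26TIR1(F74G) and WT for R26WT. On day 7 the Birc5 points of TIR1 mice lie below those of WT mice and both Plk1 windows lie above, on day 3 the Tk1 points of TIR1 mice lie below, and none passed the test over all windows.

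Ccnd3 had windows in both directions. Of its start sites, one lies inside the gene record, and the window 926.5 bp before that one, weak at a mean of 2.74 CPM, measured 3.20, 1.85, 1.71 and 2.54 CPM in R26WT mice on day 3 and 3.24, 2.95, 2.91 and 4.02 in R26TIR1(F74G) mice. On day 7 it measured 1.81, 2.38 and 2.25 CPM against 3.26, 3.22 and 2.98, without overlap. The log2 fold change over both days was 0.53 ± 0.16 (adjusted p = 0.455). The window 6207.5 bp downstream of the first start site was the most accessible member window outside promoters, at 29.5 CPM, and measured 31.3, 33.5 and 34.3 CPM in R26WT against 26.2, 27.1 and 29.0 in R26TIR1(F74G) mice on day 7. On day 3 it overlapped, with 27.4 to 36.8 against 25.2 to 28.8 CPM. A window 3057.5 bp downstream, named because DESeq2 called it over both days (adjusted p = 0.0433), measured 27.7, 29.0, 32.0 and 33.6 CPM against 27.2, 25.3, 24.1 and 23.2 on day 3 and 32.8, 29.7 and 30.9 against 25.6, 26.9 and 28.5 on day 7, and overlapped on neither day. Its edgeR value over both days was −0.26 ± 0.083, with adjusted p = 0.492.

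Groups did not overlap in 65 of 369 member windows on day 7 (17.6%, against 11.8% of all windows), of which 44 were higher in R26TIR1(F74G) mice, and in 24 of 367 on day 3 (6.54%, against 4.1%), of which 21 were lower. Over both days no member separated the 7 mice of one genotype from the 7 of the other, as 0.116% of all windows did. Of 367 members tested on both days, 3 separated the genotypes within each day in the same direction (0.817%, against 0.288% of all windows). They were picked for this pattern and 2 of them share reads, so nothing is read from the count. They were the Ccnd3 window at 3057.5 bp and a pair of overlapping windows 6701.5 and 6750.5 bp downstream of Cdkn1b. The former of the pair measured 6.41, 6.68, 6.69 and 7.02 CPM in R26WT mice on day 3 and 10.3, 8.37, 7.08 and 7.96 in R26TIR1(F74G) mice, and on day 7 7.11, 6.51 and 6.60 against 8.82, 7.21 and 8.04. Its log2 fold change was 0.30 ± 0.15 on day 3 (adjusted p = 0.677) and 0.25 ± 0.16 on day 7 (adjusted p = 0.884).

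**Figure D5:**
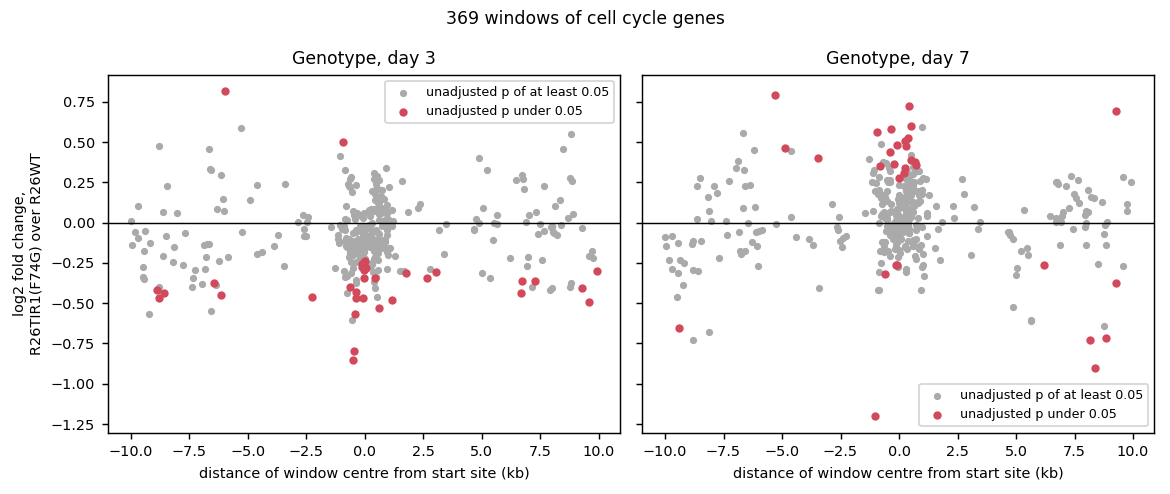
Log2 fold change of R26TIR1(F74G) over R26WT mice against the distance of the window's centre from the start site (kb) for the 369 windows on day 3 (left) and day 7 (right), with red marking an unadjusted p under 0.05. Of the red points, 33 of 35 lie below 0 on day 3 and 21 of 31 lie above 0 on day 7. Of the 31, 8 are windows of Plk1.

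By distance, 18 of 212 member windows within 1 kb of a start site had an unadjusted p under 0.05 on day 3 (8.49%, against 8.39% of all windows so placed) and 17 of 155 further out (10.97%, against 6.87%). On day 7 it was 20 of 212 within 1 kb (9.43%, against 5.59%) and 11 of 157 further out (7.01%, against 6.29%). Of the distal windows, E2f2, an E2F activator, had one 9268.5 bp inside the gene that measured 10.8, 8.93, 8.67 and 10.98 CPM in R26WT mice on day 3 and 8.63, 6.65, 7.16 and 7.88 in R26TIR1(F74G) mice. On day 7 it measured 10.5, 8.14 and 9.90 CPM against 5.56, 8.64 and 7.64. The groups did not overlap on day 3 and overlapped on day 7. The log2 fold change over both days was −0.39 ± 0.11 (adjusted p = 0.397). The windows with the largest fold among the smallest p were weak ones, such as one 1043.5 bp before Bub1b, a spindle checkpoint kinase, with 1.29, 0.756 and 1.35 CPM against 0.428, 0.477 and 0.506 on day 7 and a log2 fold change of −1.20 ± 0.45 (adjusted p = 0.761), and one 8379.5 bp inside Cdc6, which helps load the helicase, with −0.90 ± 0.37 (adjusted p = 0.803).

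Other windows named for the smallest p in a direction were weak, with means under 2 CPM. Over both days these were windows 5293.5 bp upstream of Mcm3, with a log2 fold change of 0.67 ± 0.22 (adjusted p = 0.518), and 6673.5 bp upstream of Ccna2, in the body of Bbs7, with 0.51 ± 0.20 (adjusted p = 0.623). On day 3 a further Ccna2 window, 5988.5 bp upstream, gave 0.82 ± 0.39 (adjusted p = 0.645). In the interaction the negative values were those of Bub1b, −1.62 ± 0.59, of a Cdkn2c window 8824.5 bp downstream of the start site, in the record of a long non-coding RNA, −1.27 ± 0.47, and of an E2f3 window 4883.5 bp inside the gene, −0.93 ± 0.38, at adjusted p = 0.715, 0.726 and 0.757.

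The other question was whether the windows differ between day 3 and day 7 of treatment within a genotype. Both comparisons share mice with those of genotype. In R26WT mice no member passed the test, as 0.003% of all windows did (7 of 232991), and an unadjusted p under 0.05 was found in 8 of 369 (2.17%) against 5.25% of all windows. In R26TIR1(F74G) mice no member and none of 239163 windows passed (0.0%), and 54 of 366 members (14.8%) had an unadjusted p under 0.05 against 6.96% of all, 48 of them higher on day 7. DESeq2 called no member in either. The median log2 fold change of the 40 promoter windows, day 7 over day 3, was −0.02 in R26WT and 0.08 in R26TIR1(F74G) mice, and that of all promoters −0.04 and 0.06. Neither median kept its sign in every alternative. That of R26WT mice ran from −0.07 to 0.03 as single mice were left out, and that of R26TIR1(F74G) mice was −0.01 with count-dependent loess offsets. The count of 54 was 24 without R26TIR1(F74G) day 7 replicate 1, 31 without day 7 replicate 3, 34 without day 3 replicate 3 and 24 with a replicate block, and the count of 8 ran from 5 to 13.

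In R26TIR1(F74G) mice the Plk1 window 355.5 bp before the start site had the smallest p, with a log2 fold change of 0.70 ± 0.17 (adjusted p = 0.224) and no overlap between days. In R26WT mice it was −0.31 ± 0.18. A Cdkn1b window 549.5 bp inside the gene measured 11.7, 12.7, 12.8 and 13.9 CPM on day 3 and 18.7, 16.2 and 17.1 on day 7 in R26TIR1(F74G) mice, without overlap, and 12.3, 12.6, 14.8 and 13.9 against 14.7, 17.4 and 15.4 in R26WT mice. The log2 fold changes were 0.43 ± 0.13 (adjusted p = 0.370) and 0.25 ± 0.14 (adjusted p = 0.965), in the same direction. In a Ccnd3 window 2673.5 bp downstream of its start site the values were 5.75, 7.46, 9.17 and 7.24 CPM on day 3 and 11.1, 10.1 and 12.0 on day 7 in R26TIR1(F74G) mice (0.55 ± 0.15, adjusted p = 0.319). In the other direction Cdkn2c, encoding the Cdk4 and Cdk6 inhibitor p18, had a weak window 8824.5 bp downstream with −0.89 ± 0.30 (adjusted p = 0.491), which overlaps another 8759.5 bp downstream with −0.87 ± 0.31, and the Bub1b window gave −1.06 ± 0.43. In R26WT mice the smallest p was that of a window 3470.5 bp upstream of Ccnd2, cyclin D2, at −0.39 ± 0.15 (adjusted p = 0.899), followed by a Cdk2 window 430.5 bp inside the gene at −0.41 ± 0.17 and a Ccnd3 window 7569.5 bp from the start site at −0.35 ± 0.14. In the positive direction the smallest p in R26WT mice were those of a Cdkn2c window 6892.5 bp from the start site at 0.53 ± 0.29, of the Cdkn1b window and of a Ccne1 window 629.5 bp inside the gene at 0.39 ± 0.22, all at adjusted p = 0.965.

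The remaining windows among the most accessible outside promoters did not pass the test either. That of Cdkn1b, 1179.5 bp inside the gene, measured 28.1 CPM on average and ranged from 25.3 to 30.1 over the 14 mice. That of Cdkn1a, 1741.5 bp inside the gene, measured 16.5, 15.6, 20.5 and 20.4 CPM in R26WT mice on day 3 and 17.1, 15.6, 10.7 and 16.2 in R26TIR1(F74G) mice, with overlap, and on day 7 20.8, 18.5 and 17.99 against 17.8, 14.1 and 17.05, without overlap. Its log2 fold change over both days was −0.28 ± 0.099 (adjusted p = 0.573). That of Ccnd2, 2858.5 bp upstream, measured 16.4 CPM on average, with 0.05 ± 0.095 over both days.

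Of 75 further cell cycle genes (other cyclins, inhibitors, E2F and MuvB complex genes, origin and polymerase factors, condensins and mitotic kinesins), 71 had a promoter window, with a median of 26.5 CPM, beside 25.999 CPM for the 40 members. They had 399 windows, of which none passed the test in any of the 6 comparisons. An unadjusted p under 0.05 was found in 29 of 398 on day 7 (7.29%, against 5.95% of all windows). On day 3 it was 32 of 396 (8.08%, against 7.55%) and over both days 23 of 399 (5.76%, against 6.73%). Of the 71 promoter windows, 38 on day 7 and 49 on day 3 were lower in R26TIR1(F74G) mice. Among promoters of all genes 54.9% and 76.1% were lower.

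The spread between mice was of similar size in members and in other genes. The median SD of a promoter window over the 14 mice was 0.166 on the log2 scale for the 40 members and 0.188 for 12147 genes, and within groups, relative to the median promoter of each library, 0.116 and 0.145.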

How the data were processed

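Bulk ATAC-seq of Treg cells was analysed in 14 libraries from 14 mice, grouped by genotype and day of treatment as the labels give them. The authors aligned reads to mm10 with Bowtie2, called peaks with MACS2, merged reproducible peaks and counted reads at their summits with featureCounts. The deposited values are raw counts, one per window of 201 bp and library, without normalization, and all were used as deposited.

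Windows that averaged 10 counts or more over the compared libraries were tested in R 4.3.3 with edgeR 4.0.16 (TMM scaling, quasi-likelihood test), and p-values were adjusted by Benjamini-Hochberg over all windows, with a threshold of 0.05. Genotype was compared at day 7, at day 3 and in all mice together with a term for day, followed by the interaction and by day within each genotype. The comparisons share mice. Errors are SD over mice or, for log2 fold changes, SE. DESeq2 1.42.0 and other scalings, filters, sample sets and covariates were alternatives. The fits were tested on simulated data.

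Start sites were 32117 sites of protein-coding genes, the 5′ ends of gene records and the starts of the RefSeq promoter table. The strand came from RefSeq for 17491 genes and from GENCODE by symbol for 3946, and 459 genes of 21896 without a strand were left out. Windows named in the text were the promoter window of each gene, windows past the threshold, the 3 smallest p in each direction of each comparison, the 5 most accessible windows over 1 kb from a start site with 1 per gene, and the highest and lowest promoter of each role. Exceptions are stated where they are named. Members, lists and tests were chosen with earlier results of these data known.

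Library totals ran from 5653289 to 20184487 counts, and windows with few counts were measured least precisely. Each group has 3 or 4 mice. No pair of the 18 pairs of libraries within groups was identical. Replicate numbers did not pair the mice. One B cell marker is not reported here.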

Additional observations from a re-analysis of the deposited data

Results flagged for a closer look

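In 4 of 80 groups of promoter values, as many as chance gives, 1 mouse lay far from the others. These were the groups of 4 mice on day 3, and those of 3 mice on day 7 were not examined. The count from chance takes promoters as independent, although promoter levels of one mouse moved together. Aurka measured 40.72 CPM in R26WT day 3 replicate 4 and 37.6 to 38.1 CPM in the other 3 mice. Mki67 measured 28.95 CPM in R26TIR1(F74G) day 3 replicate 1, the library with the fewest counts, 5653289, and 19.4 to 20.8 CPM in the others. In the same mouse Ccne2 measured 34.53 CPM against 31.6 to 31.9 CPM. Mcm3 measured 34.12 CPM in R26TIR1(F74G) day 3 replicate 2 against 30.8 to 31.3 CPM.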

How the results depend on the processing

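The number of cell cycle windows called was recomputed in 122 alternatives over the 6 comparisons and was 0 in 118 of them. The exceptions all concern genotype over both days. DESeq2 called 3 windows, which were both of Birc5 and the Ccnd3 window 3057.5 bp downstream of its first start site. It called 0.0644% of all windows (155 of 240778), of which 210066 had no adjusted p and could not be called. A mean count of at least 50 gave 1 among 228 windows, where 0.124% of all windows passed (83 of 66750), and 1 was also called with the promoter share of counts as a term and without the 2 libraries with the fewest counts, where 0.0457% and 0.047% of all windows passed, both of these settings having been added after seeing the data. In each of these it was the Birc5 promoter window, whose adjusted p ran from 0.00619 to 0.437 over all alternatives while its log2 fold change stayed between −0.42 and −0.32. With each mouse left out in turn the count was 0 in every comparison. With a replicate block the count was 0 in all 6, and correlations of deviations between mice of the same number ran from −0.0626 to 0.0679, with 3 of 14 libraries most like their own number, so the numbers were not taken as pairs.

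The median log2 fold change of the promoter windows ran from −0.21 to −0.03 on day 3, from −0.08 to 0.00 on day 7 and from −0.14 to −0.02 over both days. The interaction median, 0.12, was −0.01 with count-dependent loess offsets, and the median for day in R26TIR1(F74G) mice, 0.08, was likewise −0.01. The cause was not tested. Of 36 single-window results under 643 alternatives none changed direction. These windows were picked for the smallest p in the same counts, so little else could be found and nothing is read from it. With centres within 500 bp of the start site, levels in R26WT mice were 3.74 CPM for Ccna2, 11.9 CPM for Ccne2 and 11.2 CPM for Cdk6. For Ccna2 and Ccne2 this start site was the 5′ end of the gene record, and a start further inside was not examined. With 3 or 4 mice a group and a median SE of 0.122 to 0.124 at promoters, differences of that order could not be detected.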
